A study of Mus musculus with 6 samples.

Results

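The genes described are Trp53, which encodes the transcription factor p53, its inhibitors Mdm2 and Mdm4, and established mouse targets of p53. They were chosen by symbol from knowledge of the pathway, with earlier results of these data known. All 32 were found among the 54532 genes of the deposited table. RNA was sequenced from mouse primary lung fibroblasts, as the labels name them, in 3 libraries titled NC and 3 titled calumenin KD (knockdown). Elsewhere in the labels these groups appear as WT and KO, and neither NC nor the method of removing calumenin is spelled out. No strain, age, agent or time is given for either group, and nothing says that replicates came from separate animals or cultures, so p-values here reflect only sample-to-sample spread, possibly technical. The study set out to ask what removing calumenin, a calcium-binding protein of the secretory pathway, does to senescence and fibrosis signalling.

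In unstressed cells p53 is made and destroyed continuously, because Mdm2 marks it for degradation and Mdm4 blocks its activity. DNA damage and other stresses free p53 from these inhibitors, and it then switches on genes that stop the cell cycle, repair DNA, adjust metabolism or start apoptosis. Mdm2 is itself a p53 target, which closes a feedback loop. The pathway is best known in fibroblasts as a route to senescence, and much of its control acts on the p53 protein, which RNA-seq does not measure.

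Calu, the targeted gene, had 220, 227 and 225 FPKM (fragments scaled to gene length and library depth) in NC1, NC2 and NC3 and 14.6, 12.6 and 13.1 FPKM in KD1, KD2 and KD3. Depth recovered from the FPKM values was 15907164 to 18312888 reads per library. Library KD1 stood apart from KD2 and KD3, and results that turn on it are given with and without it. Its mitochondrial share of reads was 2.56%, against 1.596% to 1.97% in the other 5 libraries. Of the fibroblast markers Vim, Col1a1 and Fn1 were abundant, but Lum had 0 reads, Dcn was at 0 to 0.0216 FPKM, and Thy1 and Fap stayed below 0.31 FPKM in every library. The summed level of 7 epithelial markers was at most 0.887 FPKM and that of 6 endothelial markers at most 0.204 FPKM. The 7 smooth muscle and pericyte markers summed to 54.7 to 58.8 FPKM in NC and 45.8 to 60.7 FPKM in KD, most of it Cspg4, while Rgs5 had 0 FPKM in every library. The 5 mesothelial markers summed to 13.8 to 14.9 FPKM in NC and 10.7 to 14.3 FPKM in KD, most of it Msln. The 8 macrophage and leukocyte markers summed to 9.48 to 10.3 FPKM in NC and 5.44 to 8.70 FPKM in KD, most of it Cd14, Cd68 and Lyz2. The means of these genes were 4.58, 3.71 and 1.48 FPKM in NC and 3.05, 2.74 and 1.47 FPKM in KD. The pan-leukocyte gene Ptprc was at or below 0.0238 FPKM. The part of all these cell types in the results below was not tested. In RNA from whole cultures, fewer cells of a type and less RNA per cell cannot be told apart.

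The p53 protein binds DNA as a pair of half-sites of 10 bases each. RefSeq promoter windows (GRCm38.p6, 250 bases before to 50 after a transcription start) matched 25 of the 32 genes, with 36 windows in all. A perfect p53 half-site consensus, searched on both strands, stood in 11 of the 36 windows (30.6%), against 8.36% of all 32851 windows. Among 39 windows of other p53 targets the share was 10.3%. The full consensus, 2 half-sites at most 13 bases apart, was in 0 of the 36 windows and in 0.0731% of all windows. These matches describe letters in short windows and do not show binding. Sequences are given for 3 genes that passed the test below, Mdm2, Polk and Ckap2, and for Trp53, Ccng1 and Bax, which did not. Each runs 5′ to 3′ along the gene's strand, with the half-site in capitals.
Mdm2 (chr10:117710915-117710964, minus strand): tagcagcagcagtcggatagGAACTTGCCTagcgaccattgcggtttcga
Polk (chr13:96519389-96519437, minus strand): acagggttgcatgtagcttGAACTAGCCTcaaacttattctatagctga
Ckap2 (chr8:22185993-22186042, minus strand): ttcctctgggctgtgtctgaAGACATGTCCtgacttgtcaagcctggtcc
Trp53 (chr11:69580264-69580313, plus strand): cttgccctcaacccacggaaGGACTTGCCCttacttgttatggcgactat
Ccng1 (chr11:40755442-40755491, minus strand): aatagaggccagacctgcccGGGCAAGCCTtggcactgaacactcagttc
Bax (chr7:45467070-45467119, minus strand): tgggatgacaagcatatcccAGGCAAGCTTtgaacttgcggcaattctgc
The half-site began at position -186 from the start in Mdm2, -203 in Ckap2, -75 in Trp53, -185 in Ccng1 and -201 in Bax. In Polk it began at -231 from a start that lies inside the deposited span of the gene. Genes with and without a half-site therefore occur on both sides of the test: the windows of Tigar and Plk2, which also passed, held none.

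Most p53 pathway genes differed little between the groups, and those that passed the test were mostly lower in KD. Testing covered the 29 of 32 genes that averaged 1 FPKM or more across libraries, each with a mean above 1 FPKM in both groups. The genes Tnfrsf10b, Tigar, Mdm2, Polk and Plk2 fell and Ckap2 rose, by 1.18-fold to 1.49-fold, and the other 23 did not pass. None of the 29 reached a log2 difference of 1 in either direction, while 354 of all 12299 genes tested did. The 6 genes called are 20.7% of those tested, and limma with Benjamini-Hochberg adjustment at 0.05 called 24.5% of all 12299 genes tested. By direction, 17.2% were lower against 13.6% of all genes, and 3.45% higher against 10.9%. The median log2 difference was -0.07, against 0.01 over all genes tested. All KD libraries lay below all NC libraries for 9 of the 29 genes (31.0%, against 22.9% of all genes), and above them for 1 (3.45%, against 21.3%), and 44.2% of all genes did not overlap in either direction. A count-based fit, voom on the recovered reads, called the same 6 genes, and 28.1% of all genes. The share called in either direction (20.7%) was thus near that of the whole transcriptome (24.5%). The share called higher, which is 1 gene (3.45%), was smaller than that of all genes (10.9%).

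**Figure D1:**
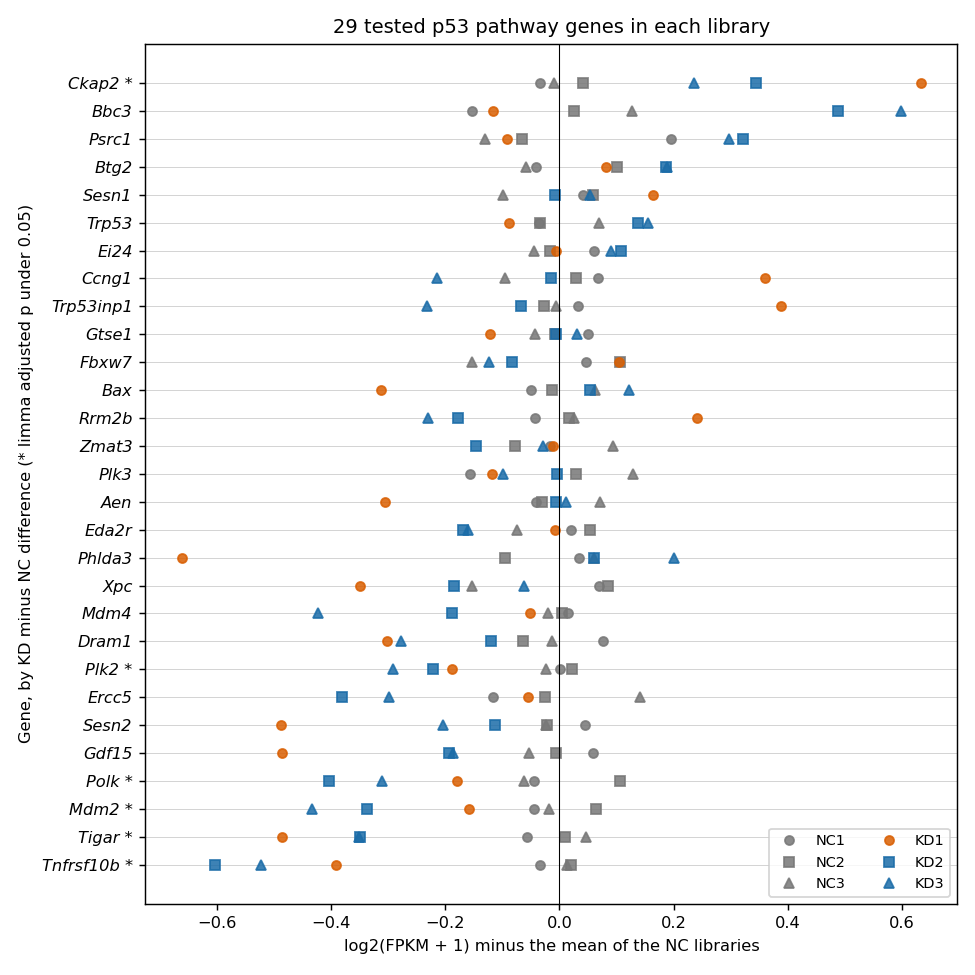
Each point is the log2(FPKM + 1) value of 1 library minus the mean of the 3 NC libraries, for the 29 tested genes in order of the KD minus NC difference. Asterisks mark the 6 genes with a limma adjusted p under 0.05. KD1 (orange) lies apart from KD2 and KD3 (blue) for many genes, such as Phlda3, Ccng1 and Trp53inp1.

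Trp53 itself did not pass the test, while Mdm2 fell. Trp53 (chromosome 11 at 69580359 to 69591873, mm10) had 40.2, 40.2 and 43.3 FPKM in NC1, NC2 and NC3 and 38.7, 45.4 and 46.0 FPKM in KD1, KD2 and KD3. The groups overlapped because KD1 was the lowest of the 6 libraries while KD2 and KD3 were the highest. The log2(FPKM + 1) difference, KD minus NC, was 0.07 (SE 0.08, limma adjusted p = 0.577), and without KD1 it was 0.15 (adjusted p = 0.0499), just past the threshold.

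Mdm2, the ubiquitin ligase that marks p53 for degradation (chromosome 10 at 117688875 to 117710758), had 15.7, 16.9 and 16.0 FPKM in the NC libraries and 14.4, 12.6 and 11.7 FPKM in KD1, KD2 and KD3. All KD values were below all NC values. The means were 16.2 ± 0.68 and 12.9 ± 1.36 FPKM (SD, n = 3), a log2 difference of -0.31 (SE 0.08, limma adjusted p = 0.0367). The call was lost without NC1, NC2, NC3, KD2 or KD3 (adjusted p between 0.0795 and 0.134). Tested genes of chromosome 10 as a whole had a median difference of -0.19, and with chromosome medians removed Mdm2 differed by -0.12 (adjusted p = 0.345). With equal totals the adjusted p was 0.0585, and with quantile normalization 0.0534. Other settings lost the call too, and Mdm2 was called in 12 of the 22 alternatives.

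Mdm4, the related inhibitor that masks the activation domain of p53, had 15.0, 14.9 and 14.6 FPKM in NC and 14.3, 12.9 and 10.8 FPKM in KD1, KD2 and KD3. The groups did not overlap, but the difference of -0.22 (SE 0.10) did not pass (limma adjusted p = 0.146). It passed without KD1, with a difference of -0.31 (adjusted p = 0.0218). The ratio of KD to NC means was 0.854 for Mdm4 and 0.797 for Mdm2.

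**Figure D2:**
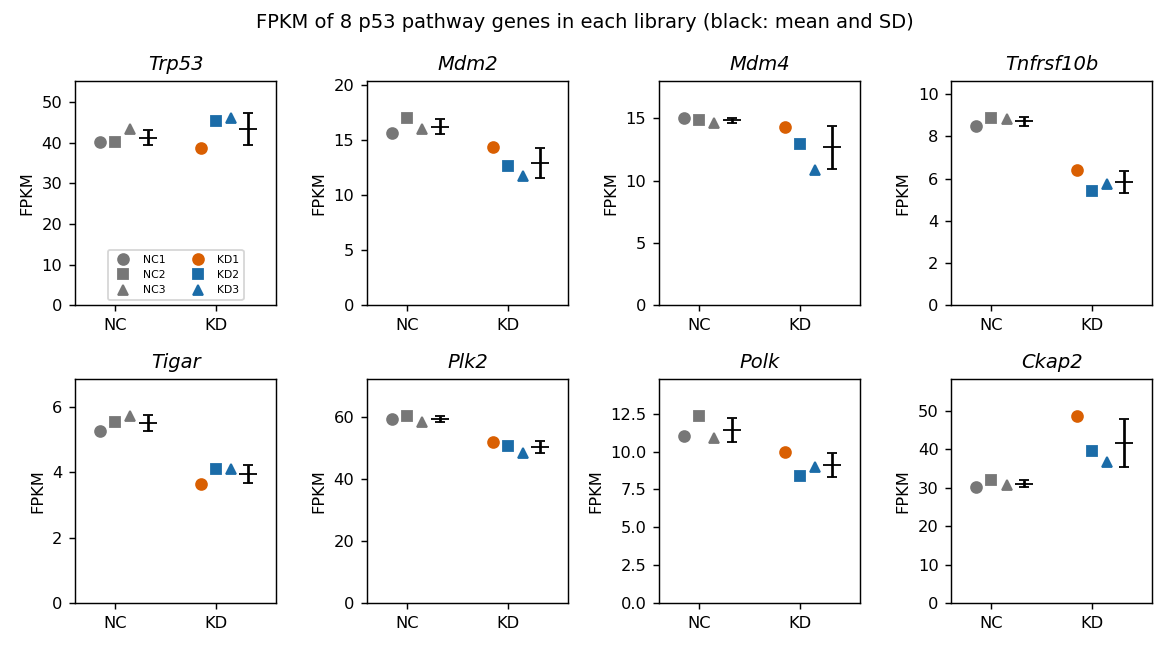
FPKM of Trp53, its inhibitors Mdm2 and Mdm4, and 5 targets that passed the test, with 1 point per library and the mean and SD of each group in black. Trp53 overlaps between groups, Ckap2 is higher in all 3 KD libraries, and the other 6 genes are lower in all 3.

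The death receptor gene Tnfrsf10b gave the largest difference of the set, and other apoptosis genes did not pass. Tnfrsf10b, which encodes the mouse receptor for the TRAIL ligand (chromosome 14 at 69767472 to 69784411), had 8.49, 8.85 and 8.81 FPKM in NC and 6.41, 5.39 and 5.76 FPKM in KD1, KD2 and KD3. Every KD library was below every NC library. The means were 8.72 ± 0.20 and 5.85 ± 0.51 FPKM (SD, n = 3), a 1.49-fold fall, with a log2 difference of -0.51 (SE 0.07, limma adjusted p = 0.00412). It was called in all 22 alternative settings tried. The tested genes of chromosome 14 had a median difference of -0.19, and with chromosome medians removed Tnfrsf10b differed by -0.32 (adjusted p = 0.0256).

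Bbc3, which encodes the BH3-only protein PUMA, had 3.05, 3.58 and 3.92 FPKM in NC and 3.16, 5.32 and 5.82 FPKM in KD1, KD2 and KD3. KD2 and KD3 were the highest libraries, but KD1 lay within the NC range. The difference was 0.32 (SE 0.19, limma adjusted p = 0.263), and without KD1 it was 0.54 (adjusted p = 0.00829). Bax, the pore-forming effector of mitochondrial apoptosis, was the most abundant apoptosis gene, with 46.2, 47.4 and 49.96 FPKM in NC and 38.3, 49.7 and 52.1 FPKM in KD1, KD2 and KD3. KD1 was again the lowest library and the other KD libraries were within or above the NC range (limma adjusted p = 0.807). Phlda3, a repressor of Akt signalling, had 26.3, 23.9 and 26.8 FPKM in NC and 15.8, 26.8 and 29.6 FPKM in KD1, KD2 and KD3 (adjusted p = 0.688).

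The remaining tested apoptosis genes were Ei24, which encodes an endoplasmic reticulum membrane protein, the nuclease gene Aen, the autophagy and apoptosis regulator Trp53inp1, the RNA-binding zinc finger gene Zmat3 and the ectodysplasin receptor gene Eda2r. Their NC and KD values overlapped, and limma adjusted p was 0.462 to 0.911. Eda2r was the lowest of the tested set, with a mean of 1.43 FPKM. Of the 12 apoptosis genes 3 were too low to test. Perp, a gene for a desmosomal membrane protein, and Pmaip1, which encodes the BH3-only protein NOXA, had 0 reads in all 6 libraries. That allows up to 0.0970 FPKM for Perp and 0.0715 FPKM for Pmaip1 in a library (3 reads, counting error only). Fas, the gene of the Fas death receptor, had 0.180 to 0.295 FPKM, or 21 reads over the NC and 22 over the KD libraries. No difference of Fas was detectable at this depth.

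Among cell-cycle and spindle genes Ckap2 rose and Plk2 fell. Ckap2, which encodes a microtubule-stabilizing protein of the mitotic spindle (chromosome 8 at 22168160 to 22185819), had 30.3, 31.98 and 30.8 FPKM in NC and 48.7, 39.7 and 36.7 FPKM in KD1, KD2 and KD3. All KD values exceeded all NC values, with KD1 the highest. The means were 31.0 ± 0.86 and 41.7 ± 6.22 FPKM (SD, n = 3), a log2 difference of 0.40 (SE 0.10, limma adjusted p = 0.0321). The call was lost without NC1, NC2, NC3 or KD2 (adjusted p between 0.0778 and 0.11). Tested genes of chromosome 8 had a median of 0.17, and with chromosome medians removed Ckap2 differed by 0.23 (adjusted p = 0.17). Other settings lost the call too, and Ckap2 was called in 15 of the 22 alternatives.

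Plk2, a polo-like kinase gene, was the most abundant of the 32 genes (chromosome 13 at 110395046 to 110400844). It had 59.3, 60.2 and 58.3 FPKM in NC and 51.9, 50.7 and 48.3 FPKM in KD1, KD2 and KD3, with no overlap. The means were 59.3 ± 0.96 and 50.3 ± 1.85 FPKM (SD, n = 3), a log2 difference of -0.23 (SE 0.05, limma adjusted p = 0.0206). The call was lost without NC1, NC2, NC3 or KD2 (adjusted p between 0.0737 and 0.1), with quantile normalization (0.0942) and with chromosome medians removed (0.0758). It was also lost with blocking by replicate number (0.0506), and Plk2 was called in 15 of the 22 alternatives. Its relative Plk3 had 6.96 to 8.70 FPKM in NC and 7.18 to 7.85 FPKM in KD, and the groups overlapped (adjusted p = 0.571).

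The other genes of this group overlapped between NC and KD. Ccng1, which encodes cyclin G1, had 33.5, 32.6 and 29.8 FPKM in NC and 41.2, 31.6 and 27.4 FPKM in KD1, KD2 and KD3, so that KD1 was the highest library and KD3 the lowest (limma adjusted p = 0.85). Btg2, an antiproliferative regulator of mRNA decay, had 4.002 to 4.59 FPKM in NC and 4.51 to 4.94 FPKM in KD (adjusted p = 0.186), and passed with chromosome medians removed, with a difference of 0.30 (adjusted p = 0.0329). Gtse1 and Psrc1, both microtubule-associated, and Fbxw7, the substrate-recognition subunit of a ubiquitin ligase, had adjusted p of 0.397 to 0.838. Gtse1 and Psrc1 were therefore not called together with Ckap2.

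Of the 4 DNA repair genes Polk fell and the others did not pass with all libraries. Polk, the gene of a translesion DNA polymerase (chromosome 13 at 96480690 to 96542579), had 11.0, 12.4 and 10.9 FPKM in NC and 9.96, 8.38 and 9.01 FPKM in KD1, KD2 and KD3, with no overlap. The means were 11.4 ± 0.81 and 9.12 ± 0.79 FPKM (SD, n = 3), a log2 difference of -0.30 (SE 0.08, limma adjusted p = 0.0406). The call was lost without NC1, NC2, NC3, KD2 or KD3 (adjusted p between 0.0841 and 0.142), with equal totals (0.056) and with chromosome medians removed (0.101). Other settings lost it too, and Polk was called in 11 of the 22 alternatives. Gm17622 overlaps Polk on the opposite strand, with 29 reads over NC and 27 over KD, and the strand setting of the counting is not given in the sources used here.

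Ercc5, which encodes the excision repair nuclease XPG, had 3.12, 3.39 and 3.93 FPKM in NC and 3.30, 2.43 and 2.63 FPKM in KD1, KD2 and KD3. Only KD1 lay within the NC range, and the difference of -0.25 (SE 0.12, limma adjusted p = 0.17) passed without KD1 (-0.34, adjusted p = 0.0371). Rrm2b, the p53-inducible ribonucleotide reductase subunit gene, had 5.38, 5.66 and 5.69 FPKM in NC and 6.77, 4.81 and 4.61 FPKM in KD1, KD2 and KD3. KD1 was above all NC libraries and KD2 and KD3 below them, so the difference went from -0.06 (adjusted p = 0.785) to -0.20 without KD1 (adjusted p = 0.031). The span of Rrm2b also contains the processed pseudogene Gm3362 (4.70 FPKM over all libraries), so reads may have been split between them. Gm3362 is short, at 466 bases, and had 91 reads over NC and 128 over KD, against 2435 and 2584 for Rrm2b. Xpc, the damage sensor of excision repair, had 2.41 to 3.02 FPKM in NC and 1.98 to 2.64 FPKM in KD (adjusted p = 0.243).

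Genes of metabolism, autophagy and stress had a median of -0.27 with all 6 libraries, and Tigar was the only one of 5 to pass. The DNA repair genes, and p53 with its inhibitors, each had a median of -0.22. The median was -0.06 for the apoptosis genes and 0.01 for the cell-cycle and spindle genes, against 0.01 over all genes tested. Without KD1, 3 of the 5 metabolism, autophagy and stress genes were called lower, as were 3 of the 4 DNA repair genes. In that fit 2658 of all 12289 genes tested were called lower, and 42.6% were called in either direction. Tigar encodes a phosphatase that lowers glycolytic flux (chromosome 6 at 127085116 to 127109557). It had 5.26, 5.56 and 5.73 FPKM in NC and 3.65, 4.11 and 4.10 FPKM in KD1, KD2 and KD3, with no overlap. The means were 5.51 ± 0.24 and 3.95 ± 0.26 FPKM (SD, n = 3), a 1.39-fold fall, with a log2 difference of -0.40 (SE 0.07, limma adjusted p = 0.0095). Tigar stayed called with any single library left out (adjusted p at most 0.0487). It lies on the chromosome of Calu, whose tested genes had a median of -0.22, and with chromosome medians removed it did not pass (-0.18, adjusted p = 0.125).

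Gdf15, the gene of a stress-induced cytokine, had 40.6, 38.8 and 37.5 FPKM in NC and 27.5, 34.0 and 34.1 FPKM in KD1, KD2 and KD3. All KD values were lower, but the difference of -0.29 (SE 0.09) did not pass (limma adjusted p = 0.0639). It passed without KD1 (-0.19, adjusted p = 0.0191) and with chromosome medians removed (-0.46, adjusted p = 0.0168). Sesn2, which encodes a leucine sensor that restrains mTORC1, had 29.8, 28.4 and 28.4 FPKM in NC and 20.3, 26.6 and 24.9 FPKM in KD1, KD2 and KD3. These also did not overlap, and the difference of -0.27 (SE 0.10, adjusted p = 0.0989) passed without KD1 (-0.16, adjusted p = 0.0407). Its relative Sesn1 was expressed less, with 3.44 to 3.95 FPKM in NC and 3.73 to 4.33 FPKM in KD (adjusted p = 0.569). Dram1, a lysosomal regulator of autophagy, had 7.38 to 8.24 FPKM in NC and 6.11 to 7.06 FPKM in KD, without overlap (adjusted p = 0.0653).

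KD1 differed from KD2 and KD3 in a way that followed base composition. For all 29 tested genes KD1 lay outside the range of KD2 and KD3, above both for 14 and below both for 15. It was above both for each of the 7 genes with a GC content under 45%, such as Trp53inp1, Rrm2b, Ccng1 and Ckap2. It was below both for each of the 6 genes over 55%, such as Bbc3, Bax, Phlda3, Gdf15 and Sesn2. These counts were not made over all tested genes. Across the 29 genes the log2 difference between KD1 and the mean of KD2 and KD3 had a Pearson r of -0.89 and a Spearman rho of -0.89 with GC content. Over 12282 tested genes rho was -0.66, so the pattern was not limited to these 29. These are correlations across genes of the same 3 libraries, and genes are not independent replicates.

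**Figure D3:**
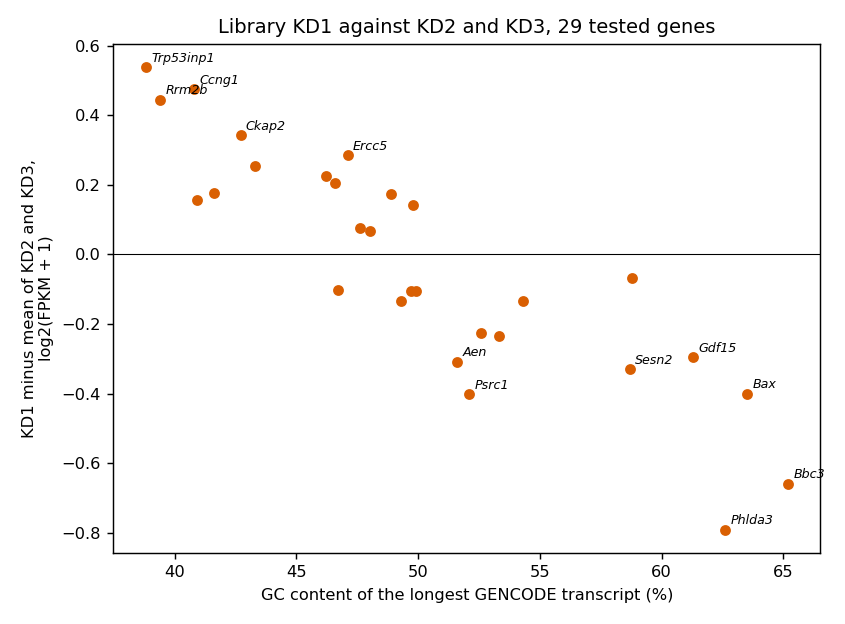
For the 29 tested genes, the log2(FPKM + 1) value of KD1 minus the mean of KD2 and KD3, against the GC content of the longest GENCODE transcript in percent. Genes under 45% GC lie above 0 and genes over 55% lie below 0.

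The count of called genes moved with KD1. Without KD1, 3 genes were higher (Ckap2, Bbc3 and Trp53) and 10 lower, and the 10 were the 5 already named with Mdm4, Gdf15, Sesn2, Ercc5 and Rrm2b. These 13 are 44.8% of the 29, against 42.6% of all genes called without KD1. Of the 29 differences, 23 kept their sign without KD1. With a trend in GC content and gene length removed from each library, 2 genes were higher (Ckap2 and Btg2) and 8 lower (the 5 already named with Bax, Gdf15 and Sesn2). The share was then 34.5%, against 37.4% of all genes. With that trend removed and all 6 libraries kept, Trp53 differed by 0.05 (limma adjusted p = 0.442) and Bbc3 by 0.21 (adjusted p = 0.207), while Mdm2 differed by -0.23 (adjusted p = 0.0213). With the trend removed and KD1 left out as well, an alternative chosen after seeing the data, the share of called genes was 31.0%, against 41.4% of all genes. There 2 genes were higher (Ckap2 and Btg2) and 7 lower (Tnfrsf10b, Tigar, Mdm2, Plk2, Bax, Gdf15 and Sesn2). Trp53 (0.08, limma adjusted p = 0.164) and Bbc3 (0.31, adjusted p = 0.0566) were not called in that fit. Neither were Mdm4, Ercc5, Rrm2b and Polk.

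**Figure D4:**
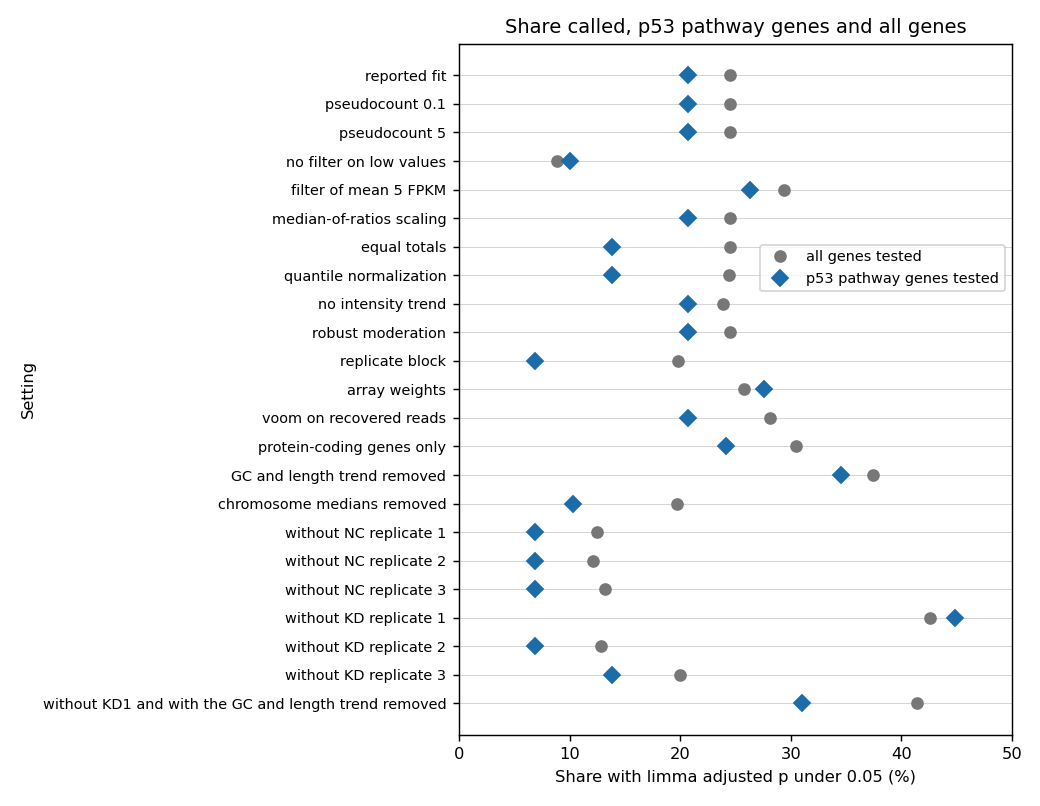
Share of tested genes with a limma adjusted p under 0.05, for the p53 pathway genes (diamonds) and for all genes (circles), in the reported fit and in each alternative. The p53 pathway share is 20.7% against 24.5% in the reported fit, and 44.8% against 42.6% without KD1.

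Other p53 targets moved in both directions. Of 38 such genes 30 were tested, 3 rose and 4 fell, or 23.3% against 24.5% of all genes, with a median log2 difference of 0.08. Casp1, the inflammatory caspase gene, rose from 23.4 ± 1.76 to 58.7 ± 6.18 FPKM (SD, n = 3), a log2 difference of 1.29 (SE 0.09, limma adjusted p = 0.000266). The cytokine gene Lif rose from 4.10 to 5.92 FPKM and the adenylate kinase gene Ak1 from 13.7 to 16.9 FPKM. Ddit4, an inhibitor of mTORC1, fell from 14.8 ± 1.99 to 6.75 ± 1.65 FPKM (SD, n = 3), a difference of -1.04 (SE 0.17, adjusted p = 0.00677). The BH3-only gene Bid fell from 55.8 to 37.9 FPKM and the chaperone gene Hspa4l from 6.98 to 4.79 FPKM.

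Cdkn1a, the gene of the cell-cycle inhibitor p21 and the best known p53 target, had 9.94 to 10.2 FPKM in NC and 10.01 to 11.0 FPKM in KD and did not pass (limma adjusted p = 0.459). Without KD1, 10 of these 30 targets rose and 7 fell, where 42.6% of all genes were called (2571 higher and 2658 lower of 12289). Casp1 and Ddit4 kept their direction and call there, with differences of 1.21 (adjusted p = 0.000199) and -0.87 (adjusted p = 0.00307). Lif lost its call without NC1, NC3, KD2 or KD3, and Ak1 without any single library other than KD1. A window of Cdkn1a held the only full p53 consensus among the windows of both target sets, shown here with the full site in capitals because no other window of these genes has one.
Cdkn1a (chr17:29090886-29090957, plus strand): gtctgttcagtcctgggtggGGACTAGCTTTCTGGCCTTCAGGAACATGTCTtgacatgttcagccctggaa

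Among regulators of p53, 3 genes fell and 1 rose. Atm, the kinase gene of the DNA break response, had 13.6, 14.7 and 13.3 FPKM in NC and 12.0, 10.5 and 9.56 FPKM in KD1, KD2 and KD3, without overlap, and a difference of -0.35 (SE 0.09, limma adjusted p = 0.0331). Pml, the scaffold gene of PML nuclear bodies and also an interferon-induced gene, fell from 66.3 ± 1.19 to 50.4 ± 0.71 FPKM (SD, n = 3). Daxx, whose product binds Mdm2 and PML, fell from 14.5 to 11.7 FPKM. Kat5, which encodes the acetyltransferase TIP60, rose from 11.7 to 15.1 FPKM. These are 15.4% of 26 tested regulators, against 24.5% of all genes. Without KD1, 3 rose and 8 fell, where 42.6% of all genes were called (2571 higher and 2658 lower of 12289). Pml was called with any single library left out. Atm lost its call without NC1, NC2, NC3, KD2 or KD3, Daxx without any one NC library, and Kat5 without NC1 or NC2. Cdkn2a, whose p19ARF product restrains Mdm2, had 0 reads in all 6 libraries, which allows up to 0.162 FPKM. The p53 relative Trp73 also had 0 reads.

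Most of the cell-cycle genes that active p53 represses through the DREAM complex did not pass, and those that passed were higher. Of 20 tested 4 rose, 0 fell and 16 did not pass, with a median log2 difference of 0.08. The spindle gene Nusap1 rose from 13.5 to 19.98 FPKM (1.48-fold), the kinase gene Aurkb from 27.1 to 35.6 FPKM, and the midzone genes Prc1 and Kif23 from 27.2 to 33.7 and from 12.6 to 15.6 FPKM. The 4 that rose are 20% of the list, against 10.9% of all genes called higher, and 13.6% of all genes were called lower. In either direction 24.5% of all genes were called. All KD libraries lay above all NC libraries for 9 of the 20 (45%, against 21.3% of all genes). Without KD1, 8 rose and 1 fell, where 42.6% of all genes were called in either direction. Of the 12289 genes in that fit, 2571 were called higher and 2658 lower. With NC1, NC2, NC3 or KD2 left out 1 rose and 0 fell, where 12.1% to 13.2% of all genes were called. Without KD3, 3 rose. Nusap1 was called with any single library left out. Aurkb and Prc1 lost their calls with blocking by replicate number (limma adjusted p = 0.0541 and 0.0618). They also lost them with chromosome medians removed (0.0525 and 0.0877), while Nusap1 and Kif23 kept theirs in both.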

How the data were processed

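The deposited table gives, for 54532 genes and 6 libraries, FPKM with gene positions and gene length in bases, per the file headers. Reads were aligned with HISAT2 2.0.5 to mm10, per the submitters' processing notes. Counting tool, strand setting and annotation release: not given in the sources used here. FPKM times length gave whole multiples of 1 step in each library for 100% of values (tolerance 0.01), so reads were recovered.

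Titles gave the groups. The values log2(FPKM + 1) were fitted with limma 3.58.1 (R 4.3.3, intensity trend) for every gene averaging 1 FPKM or more, and p-values were adjusted by Benjamini-Hochberg over all of them, with a threshold of 0.05. Differences are on that scale, which understates changes of low genes. On simulated data for KD against NC (12311 genes) limma called 76.1%, 93.8% and 98.4% of genes changed 1.5-fold, 2-fold and 4-fold. These shares rest on 67, 65 and 64 genes. The simulated counts had the same dispersion for every gene and no shift with GC content such as that of KD1. The shares therefore do not measure how many such changes would be called in the real libraries. GC content came from GENCODE M21 transcripts, promoter windows from RefSeq. Of the listed regulators 29 of 30 were found, 1 under another symbol.

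Every gene of the set was accounted for, with full values for those that passed, for Trp53, Mdm2 and Mdm4, and for those whose call changed without 1 library. For other lists up to 4 called genes in each direction were named. The values of 1 called gene among the other p53 targets are not reported here. The genes and lists were chosen with earlier results of these data known. Alternatives were other pseudocounts (0.1 and 5), filters and scalings, voom on recovered reads, array weights, other moderation, blocking by replicate number, protein-coding genes, removal of GC and length trends or chromosome medians, and each library left out. Plots used Python 3.11.15 and matplotlib 3.10.9.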

Additional observations from a re-analysis of the deposited data

How the results depend on the processing

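With all 6 libraries 1 p53 pathway gene was higher and 5 were lower in KD. With each library left out in turn the number higher ranged from 0 to 3 and the number lower from 2 to 10, the highest of both without KD1. In each of those fits fewer libraries were used, and fewer genes were called over the transcriptome except without KD1. The share of all genes called was lowest without NC2 (12.1%) and highest without KD1 (42.6%). With no filter 0 were higher and 3 lower, and 8.88% of all genes were called, against 24.5% in the reported fit. With equal totals or quantile normalization 3 were lower, and 24.5% and 24.4% of all genes were called. There 1460 and 1549 of all genes were called lower, against 1672 in the reported fit. With chromosome medians removed 2 were lower, and 19.7% of all genes were called. Removing the GC and length trend gave 2 higher and 8 lower, with 37.4% of all genes called. With KD1 also left out, an alternative chosen after seeing the data, the counts were 2 and 7, with 41.4% called. The cause of these shifts was not tested. With the replicate number as a replicate block 0 were higher and 2 lower (Tigar and Tnfrsf10b), and 19.8% of all genes were called. The numbers share no stated origin: deviations of same-numbered libraries correlated at 0.08, -0.04 and 0.15, and NC2 correlated best with KD1. Over the single genes, 571 of 628 alternative values kept the side of the threshold, 36 lost a call, 21 gained one, and none of the called differences reversed. Calu was called in all 22 alternatives. FPKM carries no error of its own, and for genes of the lowest levels, such as Bbc3 with 357 reads over NC, counting error is larger than for Plk2 with 12730.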

Other observations

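Trp53i11, a gene induced by p53 in other settings, fell outside the test because its mean was below 1 FPKM, and it was singled out after its values were seen. It had 1.30, 1.26 and 1.28 FPKM in NC1, NC2 and NC3 and 0.0879, 0.0818 and 0.0641 FPKM in KD1, KD2 and KD3, with no overlap. That is 226 reads over the NC libraries and 15 over the KD libraries, a 16.4-fold ratio of means. In the fit with no filter the log2(FPKM + 1) difference was -1.08 (limma adjusted p = 0.00122).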
